A study of Homo sapiens with 27 samples.

Results

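A set of 8 genes that drive mitosis, DNA replication or entry into the cell cycle was followed across 27 libraries of 3 human lung cancer cell lines treated with platinum drugs or with vehicle. They are CCNB1, PLK1, CDK1, CDC20 and AURKB (mitosis), TOP2A and TYMS (DNA replication and its supply) and CCND1 (G1 progression). The genes were taken by name, and every deposited 3′-end peak on the gene's strand within its hg19 window was counted as a member end, which gave 82 merged peaks of 233020 in the whole series. The main end of a gene was the peak with the highest summed level over the 27 libraries. All 8 main ends were listed in all 27 libraries, as were 17 of the 82 member peaks in all.

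Cyclin B1, encoded by CCNB1, binds and activates the kinase CDK1, and the complex drives cells into mitosis. PLK1 is a kinase that promotes this activation and spindle assembly, AURKB is the kinase of the chromosomal passenger complex, and CDC20 activates the ubiquitin ligase that ends mitosis by degrading cyclin B1 and securin. TOP2A untangles sister chromatids, TYMS makes the thymidylate needed for DNA synthesis, and cyclin D1, encoded by CCND1, partners CDK4 and CDK6 in G1. Transcripts of most of the mitotic genes accumulate late in the cell cycle. Cisplatin and oxaliplatin are platinum compounds that form DNA adducts and activate the DNA damage response; cisplatin carries ammine and chloride ligands, whereas oxaliplatin carries a diaminocyclohexane and an oxalate ligand.

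Promoters of such genes often hold a CHR element, read by the DREAM and MuvB complexes that repress or activate cell cycle genes, CCAAT boxes bound by NF-Y, and E2F sites. The promoters of PLK1, CCNB1, TOP2A and CDK1 are shown because, in H358 cells with cisplatin, the main end of CDK1 was higher while ends of the other 3 genes were lower. They run from 250 bases before to 50 bases after the transcript start, 5′ to 3′ on the gene's strand, and are credited to RefSeq on GRCh38.p14, at chr16:23678639-23678938 on the plus strand for PLK1, chr5:69166900-69167199 on the plus strand for CCNB1, chr17:40417847-40418146 on the minus strand for TOP2A and chr10:60778228-60778527 on the plus strand for CDK1, which has a further entry. Capitals mark the motifs searched on both strands, which were TTTGAA and TTCGAA for the CHR, CCAAT for NF-Y, and TTTGGCGC, TTTCGCGC, TTTCCCGC and TTTGCCGC for E2F.
PLK1: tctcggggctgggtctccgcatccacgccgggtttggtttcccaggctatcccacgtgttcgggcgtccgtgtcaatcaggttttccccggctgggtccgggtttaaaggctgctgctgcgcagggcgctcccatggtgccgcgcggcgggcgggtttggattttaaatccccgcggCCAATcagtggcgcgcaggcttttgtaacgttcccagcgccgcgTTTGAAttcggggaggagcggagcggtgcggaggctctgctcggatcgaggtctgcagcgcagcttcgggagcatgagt
CCNB1: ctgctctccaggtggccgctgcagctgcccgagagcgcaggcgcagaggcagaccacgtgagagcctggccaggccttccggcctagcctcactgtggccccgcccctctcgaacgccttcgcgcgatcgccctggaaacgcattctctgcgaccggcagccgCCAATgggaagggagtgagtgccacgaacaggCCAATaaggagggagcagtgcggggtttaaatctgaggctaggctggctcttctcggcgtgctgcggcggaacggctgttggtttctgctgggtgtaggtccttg
TOP2A: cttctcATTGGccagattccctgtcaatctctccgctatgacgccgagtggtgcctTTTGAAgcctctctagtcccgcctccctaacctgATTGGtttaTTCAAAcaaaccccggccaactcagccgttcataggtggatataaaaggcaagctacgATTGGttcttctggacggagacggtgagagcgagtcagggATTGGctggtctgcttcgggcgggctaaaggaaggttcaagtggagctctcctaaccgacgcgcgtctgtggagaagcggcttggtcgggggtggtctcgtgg
CDK1: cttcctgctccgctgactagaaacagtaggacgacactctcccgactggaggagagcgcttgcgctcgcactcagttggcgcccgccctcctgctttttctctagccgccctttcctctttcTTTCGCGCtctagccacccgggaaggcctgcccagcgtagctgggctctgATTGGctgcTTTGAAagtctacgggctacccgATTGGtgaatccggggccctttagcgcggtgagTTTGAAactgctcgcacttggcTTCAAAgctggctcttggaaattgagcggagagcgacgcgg
Of the 8 genes, 7 had a RefSeq promoter, and CCND1 is named only. A CHR sequence was found for 4 of the 7 (CDC20, PLK1, CDK1 and TOP2A), against 19.5% of 27305 genes with a promoter. A CCAAT box was found for 6 of the 7, against 39.7% of all genes, and an E2F sequence for 2 of the 7 (CDK1 and TYMS), against 3.99%. Among the wider lists, a CHR was found for 12 of 18 mitosis genes, 2 of 15 replication genes and 0 of 4 G1 genes, and an E2F sequence for 1, 10 and 0 of them. These matches describe letters in a window; levels of the genes in the wider lists were not analysed here, since no annotation of the files' build was at hand.

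The 27 libraries were made by 3′-seq, in which fragmented poly(A)+ RNA is primed with anchored oligo-dT so that reads pile up at transcript ends. They form 9 groups of 3: H358 whole cells with cisplatin, oxaliplatin or DMSO, cytosol of A549R cells with cisplatin or DMSO, cytosol of A549 cells with cisplatin or DMSO, and heavy polysomes of A549 cells with cisplatin or DMSO. Both drugs were used at 100 µM; the labels give no exposure time. All are established non-small cell lung cancer lines, and A549R is the cisplatin-resistant counterpart of A549; the sources used here do not say how it was derived. The series was set up to ask how cisplatin response and resistance alter the use of intronic and last-exon transcript ends.

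The peak lists summed to 3024814 to 11997535 reads per library, the lowest being A549R DMSO replicate 3. Peak numbering showed that 16 lists held 73.1% to 79.4% of their numbered peaks, while 11 held 30.6% to 42.3%. The 11 short lists were those of H358 with oxaliplatin, of all A549 cytosol libraries and of replicate 3 of both polysome groups. A peak missing from a short list was therefore not read as a count of 0, and only peaks listed in every library of a fit were tested (14358 in H358, 16439 in cytosol, 21585 in polysomes). Where a comparison crosses both kinds of list, list kind and group cannot be told apart. Levels are given as CPM, reads per 1000000 scaled with TMM factors over the 10283 peaks listed in all 27 libraries. Fitted log2 changes use factors of their own fit, so they differ slightly from the ratio of the CPM means. A test was passed at a Benjamini-Hochberg adjusted p under 0.05 over all peaks of the fit in edgeR's quasi-likelihood test. The labels do not say that replicates were separate cultures, so p-values measure only the spread between these samples. Where groups are said to overlap or not, this only describes the libraries shown, and its frequency over all peaks was not counted. In bulk RNA, fewer cells at the stage that expresses a gene and less RNA in each cell cannot be told apart.

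**Figure D1:**
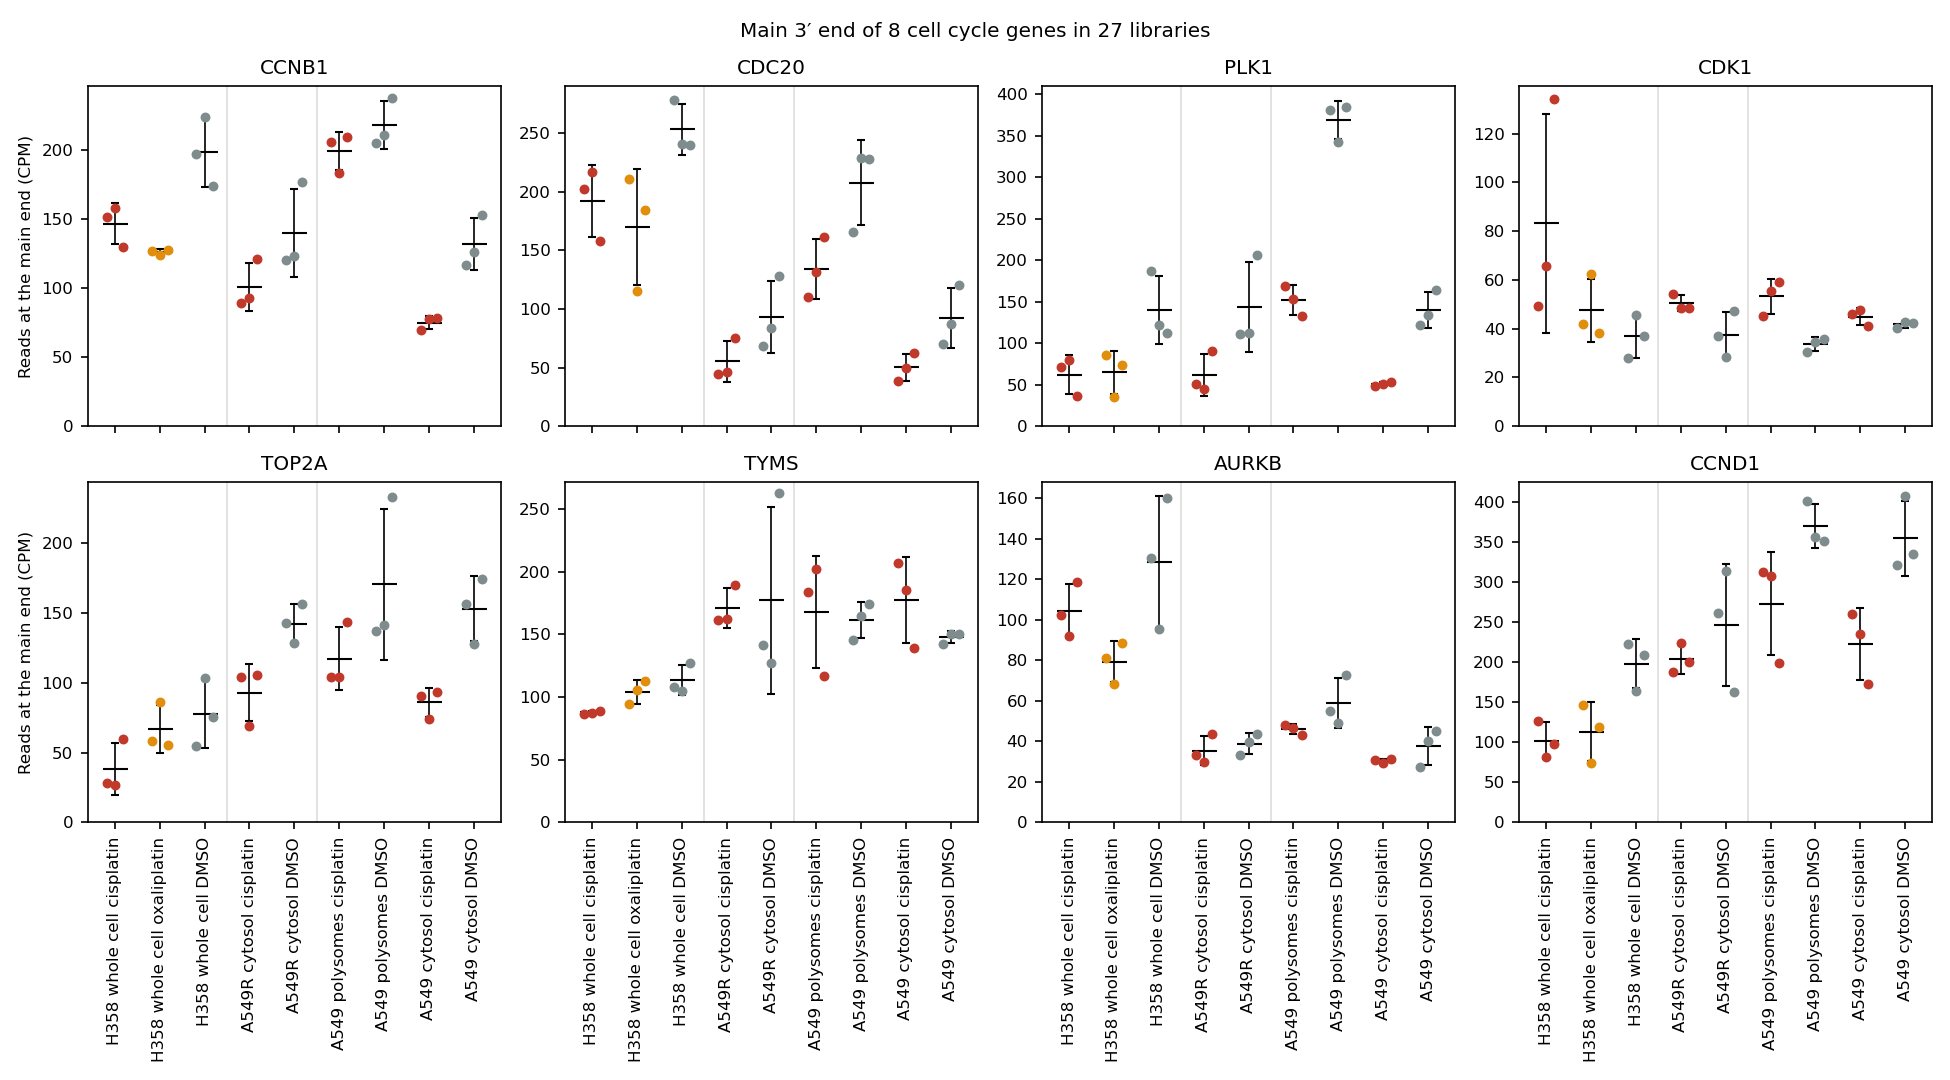
Level of each gene's main transcript end in every library, in CPM on the vertical axis, by group on the horizontal axis; points are libraries, and bars show the mean and SD of 3. PLK1 sat at 35.9 to 79.6 CPM in H358 cells with cisplatin and at 111.8 to 187.5 CPM in H358 cells with DMSO, and it reached 342.7 to 384.1 CPM in A549 polysomes with DMSO.

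In H358 cells cisplatin lowered the main ends of PLK1, TOP2A and CCND1 and raised that of CDK1. Of the 8 main ends, 1 rose and 3 fell, while over all peaks 11.8% rose and 14.4% fell (26.2% either way), and the median log2 change was −0.54 for the 8 against −0.04 for all peaks. CCNB1, the partner of CDK1, did not pass the test.

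PLK1 (chr16:23701186-23701693, plus strand) had 71.1, 79.6 and 35.9 CPM in cisplatin-treated H358 cells, against 187.5, 121.9 and 111.8 CPM in DMSO cells. All 3 treated libraries lay below all 3 DMSO libraries, and the fitted level was 0.407 of that in DMSO (log2 −1.30 ± 0.33 SE, edgeR adjusted p = 0.00586). Between 58 and 224 reads stood behind the treated values. The call held without any 1 of the 9 libraries of the fit.

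CDK1 (chr10:62554147-62554693, plus strand) had 49.5, 65.7 and 134.2 CPM with cisplatin, against 28.1, 45.7 and 36.9 CPM with DMSO. The groups did not overlap, but treated replicate 3 stood well above the other two treated libraries, and the SD of the treated group was 44.96 CPM around a mean of 83.1 CPM. The fitted change was 2.06-fold (log2 1.04 ± 0.32 SE, edgeR adjusted p = 0.0189). Without cisplatin replicate 3 it was 0.52 with adjusted p = 0.24, and without DMSO replicate 1 it was 0.88 with adjusted p = 0.0712. Its direction was the same in all 19 alternative settings, with a log2 change of 0.45 to 1.31, and the call held in 11 of them.

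TOP2A (chr17:38551688-38551803, minus strand) had 27.9, 26.99 and 60.0 CPM with cisplatin, against 54.8, 103.1 and 75.6 CPM with DMSO. Treated replicate 3, again the high one, overlapped the lowest DMSO library, and the change was −1.16 ± 0.31 on the log2 scale (SE, edgeR adjusted p = 0.00905). The adjusted p was 0.0541 without cisplatin replicate 1, 0.079 without cisplatin replicate 2 and 0.053 without DMSO replicate 2.

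CCND1 (chr11:69468361-69469253, plus strand) had 126.9, 81.7 and 97.7 CPM with cisplatin, against 222.7, 164.1 and 208.5 CPM with DMSO. The groups did not overlap, with a log2 change of −1.07 ± 0.26 (SE, edgeR adjusted p = 0.00466), and no single library decided the call. CCND1's end at chr11:69465880-69468295 was stronger than its main end in H358 cells. It averaged 225.0 ± 42.3 CPM with cisplatin and 309.6 ± 20.5 CPM with DMSO (SD, n = 3 each). The call given here is for the main end.

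The other 4 main ends were all lower on average but missed the threshold. CCNB1 (chr5:68473345-68474205, plus strand) averaged 146.8 ± 14.99 CPM with cisplatin and 198.7 ± 25.1 CPM with DMSO (SD, n = 3 each), with a log2 change of −0.56 and an edgeR adjusted p of 0.0541, and 0.0331 without DMSO replicate 3. CDC20 (chr1:43828616-43828913, plus strand) averaged 192.1 ± 30.7 CPM with cisplatin and 253.2 ± 21.7 CPM with DMSO (SD, n = 3 each; edgeR adjusted p = 0.117). TYMS (chr18:672794-673631, plus strand) averaged 87.6 ± 1.28 CPM with cisplatin and 113.4 ± 12.0 CPM with DMSO (SD, n = 3 each; edgeR adjusted p = 0.0954). In these 3 genes every treated library lay below every DMSO library, but how often this holds over all peaks was not counted. In this comparison 5416 of 14358 peaks had an unadjusted p under 0.05 in edgeR. AURKB (chr17:8108043-8108370, minus strand) averaged 104.3 ± 13.5 CPM with cisplatin and 128.7 ± 32.5 CPM with DMSO, and its groups overlapped (SD, n = 3 each; edgeR adjusted p = 0.203). When libraries were scaled by all listed reads instead of TMM, the median log2 change of all peaks was −0.51. CDK1 then stood at 0.56 with an edgeR adjusted p of 0.187, and the other 7 main ends all fell. The share of all peaks that fell under this scaling is not given here, so this count is not read as a result about the genes.

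**Figure D2:**
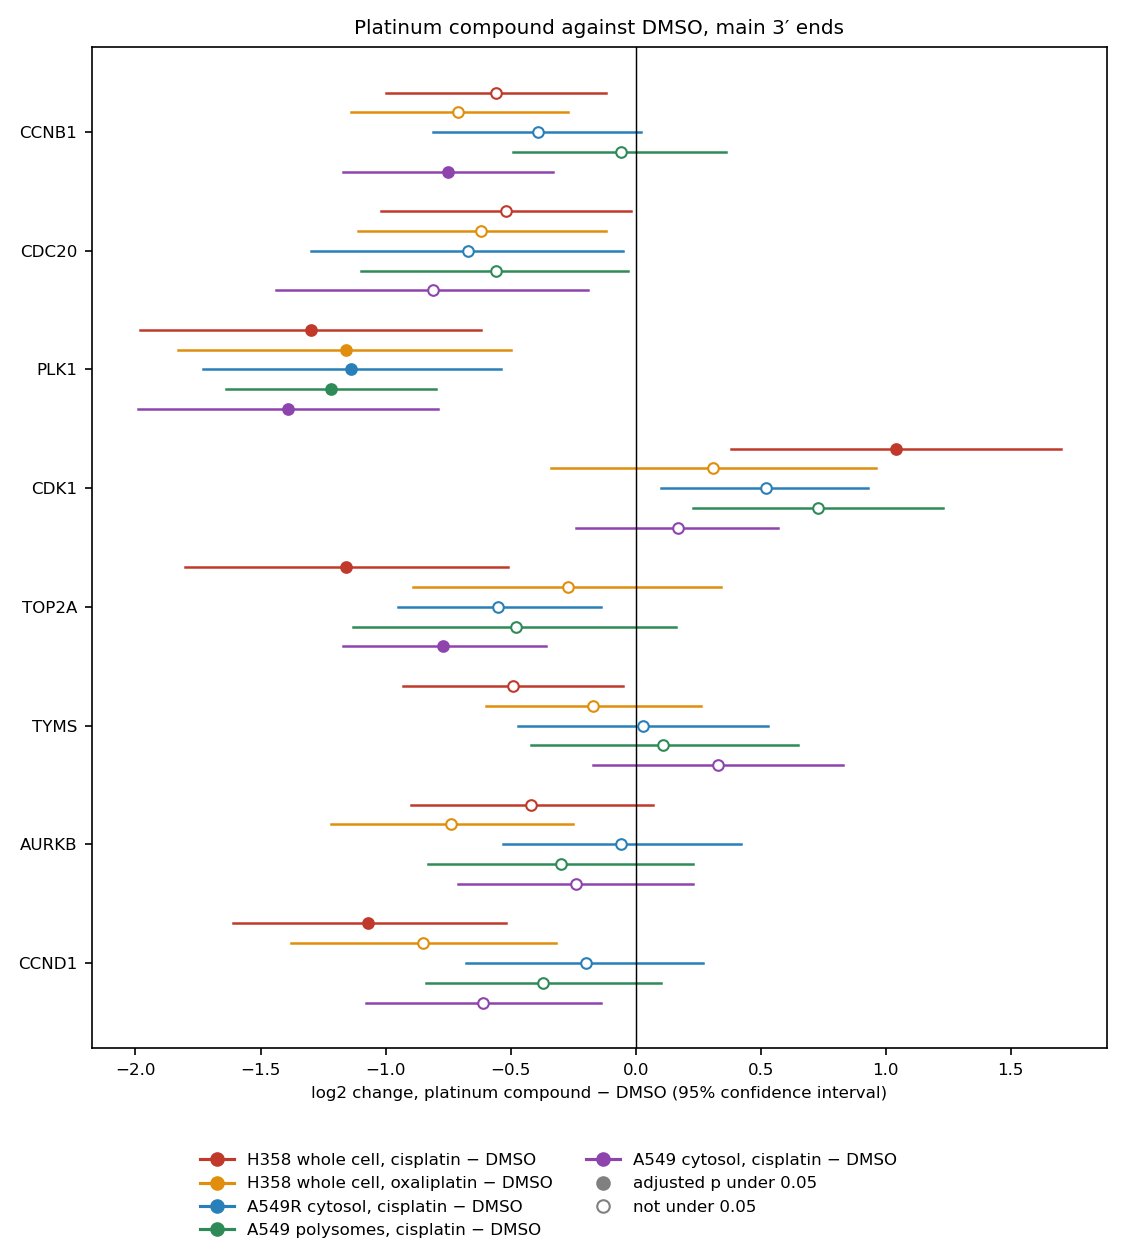
Log2 change of each main end under drug relative to DMSO with its 95% confidence interval, by cell system; filled points passed the adjusted p threshold of 0.05. PLK1 lies between −1.39 and −1.14 and is filled in all 5 comparisons, whereas CDK1 is filled only for cisplatin in H358 cells.

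Ends other than the main one moved the same way in TOP2A. Its transcripts were listed at 30 ends, the most of the 8 genes, and the main end lay upstream of the most distal one. The most distal end (chr17:38544766-38545272) averaged 20.4 ± 6.78 CPM with cisplatin and 36.1 ± 13.5 CPM with DMSO in H358 cells (SD, n = 3 each; log2 −0.98, edgeR adjusted p = 0.0303). An end at chr17:38555017-38555440 averaged 26.1 ± 21.5 CPM with cisplatin and 63.0 ± 21.1 CPM with DMSO (SD, n = 3 each; log2 −1.42, edgeR adjusted p = 0.0102). The ends at chr17:38548826-38549061 and chr17:38574016-38574231 also fell, by 1.14 and 1.38 on the log2 scale, so all 5 tested TOP2A ends were lower. No genome of the files' build was read, so the bases next to these ends, which oligo-dT could prime inside a transcript, were not examined.

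In CCNB1 the end at chr5:68467091-68467287 fell, at 10.7 ± 3.84 CPM with cisplatin and 21.5 ± 1.92 CPM with DMSO (SD, n = 3 each; log2 −1.07, edgeR adjusted p = 0.0171). Over the 21 member ends tested in H358 cells, main ends included, 1 rose, 8 fell and 12 did not pass, against 11.8% of all peaks rising and 14.4% falling. Several of the ends that fell belong to TOP2A, and ends of the same gene are not independent of each other. CDK1's end just upstream of the main one (chr10:62553627-62554094) averaged 55.9 ± 18.1 CPM with cisplatin and 39.1 ± 10.98 CPM with DMSO, and did not pass (SD, n = 3 each; log2 0.37, edgeR adjusted p = 0.357). Summed over all its listed ends, CDK1 changed by 0.53 on the log2 scale and did not pass (edgeR adjusted p = 0.189). The call therefore applies to the main end only. An end that a library did not list counts as 0 in this sum. The upstream CDK1 end at chr10:62544338-62544607 was missing from 1 of the cisplatin lists, which lowers the treated sum.

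**Figure D3:**
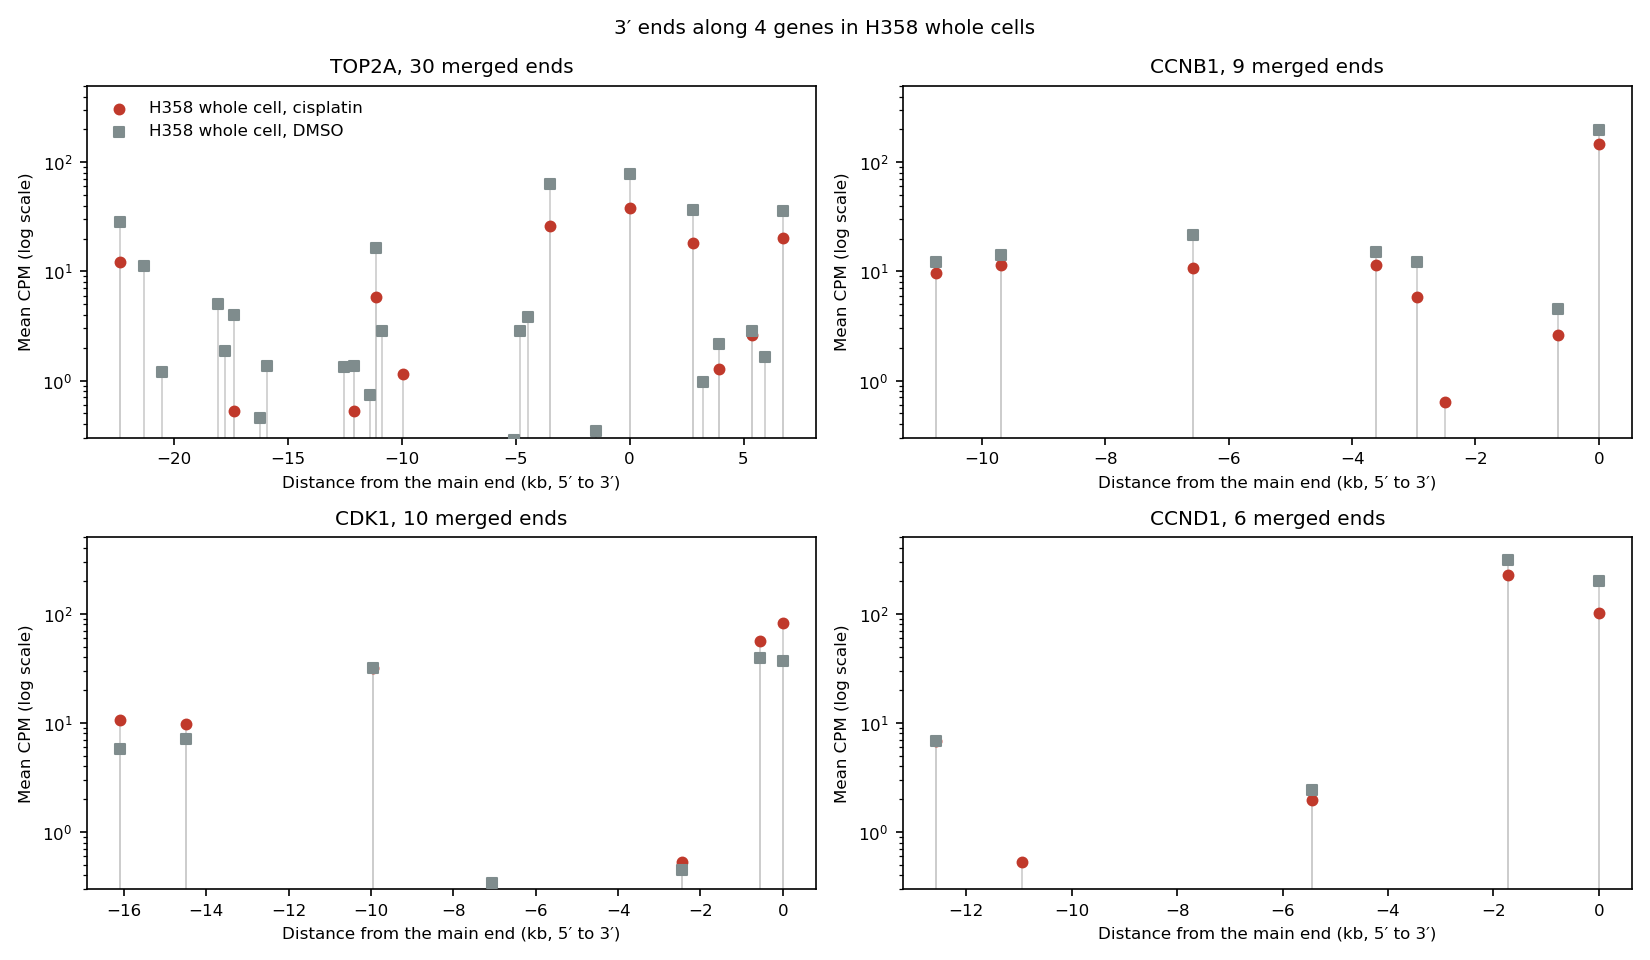
Mean level in CPM, on a log axis, of each listed transcript end in H358 cells with cisplatin and with DMSO, by distance from the gene's main end, for TOP2A, CCNB1, CDK1 and CCND1; a library that did not list an end counts as 0 in the mean, and ends below the axis are not drawn. The 5 tested ends of TOP2A are all lower with cisplatin, for example 26.1 CPM with cisplatin and 63.0 CPM with DMSO at chr17:38555017-38555440.

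Oxaliplatin in H358 cells lowered 1 of the 8 main ends, that of PLK1, and raised none, while 4.05% of all peaks fell and 5.32% changed either way. PLK1 had 85.5, 35.3 and 73.7 CPM with oxaliplatin, against 187.5, 121.9 and 111.8 CPM with DMSO. The groups did not overlap, with a log2 change of −1.16 ± 0.32 (SE, edgeR adjusted p = 0.0355). CCNB1 followed at 126.4 ± 2.14 CPM with oxaliplatin and 198.7 ± 25.1 CPM with DMSO (SD, n = 3 each; log2 −0.71, edgeR adjusted p = 0.0509). CCND1 averaged 113.5 ± 36.5 CPM with oxaliplatin and 198.4 ± 30.6 CPM with DMSO (SD, n = 3 each; log2 −0.85, edgeR adjusted p = 0.0568). AURKB averaged 79.4 ± 10.1 CPM with oxaliplatin and 128.7 ± 32.5 CPM with DMSO (SD, n = 3 each; log2 −0.74, edgeR adjusted p = 0.0672). The other end that fell, of 21 member ends tested, was CCNB1's at chr5:68462942-68463119, with 4.81 ± 0.581 CPM with oxaliplatin and 12.1 ± 4.14 CPM with DMSO (SD, n = 3 each; log2 −1.39, edgeR adjusted p = 0.0166). TOP2A stood at 66.9 ± 17.1 CPM with oxaliplatin and 77.8 ± 24.2 CPM with DMSO (SD, n = 3 each), close to each other relative to their spread.

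Same-numbered oxaliplatin and DMSO libraries deviated together, and with the replicate number as a block 5 main ends fell and none rose, against 9.6% of all peaks falling. These were PLK1 with CCNB1 (adjusted p = 0.00862), CDC20 (0.0334), AURKB (0.00631) and CCND1 (0.00149). The block also spanned the cisplatin libraries, which were not taken as paired. The lowest correlation between same-numbered oxaliplatin and DMSO libraries was only 0.11. The PLK1 call without the block was lost without DMSO replicate 1 (log2 −0.88, adjusted p = 0.201), oxaliplatin replicate 2 (−0.86, adjusted p = 0.168), oxaliplatin replicate 3 (−1.27, adjusted p = 0.0728) or cisplatin replicate 2 (−1.16, adjusted p = 0.0507). Calls were gained for CCND1 without oxaliplatin replicate 1 (adjusted p = 0.0283) or DMSO replicate 2 (0.04), for AURKB without DMSO replicate 2 (0.0269) and for CCNB1 without DMSO replicate 3 (0.0389). List kind and drug cannot be told apart here, since the oxaliplatin lists were short and the DMSO lists long.

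Set directly against each other at the same dose, cisplatin and oxaliplatin differed at 0 of the 8 main ends in edgeR, where 2 had an unadjusted p under 0.05 and DESeq2 called 0, while 19.2% of all peaks passed. TOP2A averaged 38.3 ± 18.8 CPM with cisplatin and 66.9 ± 17.1 CPM with oxaliplatin (SD, n = 3 each; log2 −0.88, 95% interval −1.53 to −0.23, edgeR adjusted p = 0.0516). CDK1 averaged 83.1 ± 44.96 CPM with cisplatin and 47.5 ± 12.9 CPM with oxaliplatin (SD, n = 3 each; log2 0.73, interval 0.08 to 1.39, edgeR adjusted p = 0.109). PLK1 averaged 62.2 ± 23.2 CPM with cisplatin and 64.8 ± 26.2 CPM with oxaliplatin (SD, n = 3 each; log2 −0.13, interval −0.81 to 0.55), a width that leaves room for a difference either way. For TOP2A, the edgeR adjusted p was 0.036, 0.0399 and 0.00673 without DMSO replicate 1, DMSO replicate 2 and cisplatin replicate 3. For CDK1 it was 0.0396 without cisplatin replicate 1 and 0.0491 without oxaliplatin replicate 2. Both comparisons against DMSO share the same 3 DMSO libraries.

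In A549 cytosol cisplatin lowered the main ends of CCNB1, PLK1 and TOP2A and raised none of the 8. Over all peaks 3.94% fell and 7.23% changed either way, and the median log2 change was −0.68 for the 8 main ends against 0.01 for all peaks. PLK1 had 48.2, 51.3 and 53.7 CPM with cisplatin, against 121.9, 134.2 and 164.3 CPM with DMSO, 0.382 of the DMSO level (log2 −1.39 ± 0.28 SE, edgeR adjusted p = 0.0103). CCNB1 had 69.8, 77.5 and 78.2 CPM with cisplatin, against 117.1, 126.5 and 153.3 CPM with DMSO (log2 −0.75 ± 0.20 SE, edgeR adjusted p = 0.0339). TOP2A had 90.4, 74.2 and 93.6 CPM with cisplatin, against 156.4, 128.1 and 174.5 CPM with DMSO (log2 −0.77 ± 0.19 SE, edgeR adjusted p = 0.0282). In each of the 3 genes all treated libraries lay below all DMSO libraries.

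CDC20 averaged 50.2 ± 11.9 CPM with cisplatin and 92.5 ± 25.8 CPM with DMSO in A549 cytosol (SD, n = 3 each; log2 −0.81, edgeR adjusted p = 0.106). CCND1 averaged 222.8 ± 44.8 CPM with cisplatin and 354.7 ± 46.9 CPM with DMSO (SD, n = 3 each; log2 −0.61, edgeR adjusted p = 0.108). Neither overlapped between the groups, and with the replicate number as a block, which pairs these libraries, both also fell (adjusted p = 0.00416 and 0.0311), giving 5 of 8 that fell against 6.51% of all peaks. The block also spanned the A549R libraries, and those of A549R and A549 with cisplatin were not taken as paired. CDK1, TYMS and AURKB overlapped between the groups, with CDK1 at 44.9 ± 3.36 CPM with cisplatin and 41.9 ± 1.42 CPM with DMSO (SD, n = 3 each). Without the block, 7 of the 19 member ends tested fell and none rose, against 3.94% of all peaks falling and 3.29% rising. Ends of the same gene are not independent of each other. Besides the main ends, those that fell were CCNB1's end at chr5:68470695-68470947 and 3 TOP2A ends, of which the most distal averaged 14.3 ± 5.20 CPM with cisplatin and 35.1 ± 1.79 CPM with DMSO (SD, n = 3 each; log2 −1.22, edgeR adjusted p = 0.0108). PLK1 kept its call without any 1 library, and CCND1 gained one without A549R DMSO replicate 3, which shares the fit (adjusted p = 0.0404). CCNB1 lost it without cisplatin replicate 1, 2 or 3 or DMSO replicate 2 or 3 (adjusted p = 0.0737 to 0.0994), and TOP2A lost it without DMSO replicate 1 or 3 or cisplatin replicate 2 or 3 (adjusted p = 0.0568 to 0.129).

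In cytosol of the resistant A549R cells, PLK1 was the 1 main end of 8 that fell with cisplatin and none rose, against 2.1% of all peaks falling and 4.54% changed either way. It had 50.3, 44.9 and 90.4 CPM with cisplatin, against 111.3, 112.7 and 205.9 CPM with DMSO. The groups did not overlap, although replicate 3 was the highest in both, and the level was 0.455 of that in DMSO (log2 −1.14 ± 0.28 SE, edgeR adjusted p = 0.0349). CDC20 averaged 55.3 ± 17.5 CPM with cisplatin and 93.2 ± 31.0 CPM with DMSO (SD, n = 3 each; edgeR adjusted p = 0.197). TOP2A averaged 93.0 ± 20.6 CPM with cisplatin and 142.4 ± 13.9 CPM with DMSO (SD, n = 3 each; edgeR adjusted p = 0.114). Both fell in the fit with the replicate number as a block, which pairs these libraries (adjusted p = 0.0137 for CDC20 and 0.0221 for TOP2A), so that 3 of 8 fell against 4.58% of all peaks. This block also spanned the A549 libraries, and those of A549R and A549 with cisplatin were not taken as paired. CDK1 averaged 50.4 ± 3.35 CPM with cisplatin and 37.5 ± 9.31 CPM with DMSO, and did not pass (SD, n = 3 each; log2 0.52, edgeR adjusted p = 0.134).

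DMSO replicate 3 of A549R stood apart, with the lowest depth of the series. It had the highest PLK1, TYMS (262.4 CPM) and CCNB1 (177.0 CPM) and the lowest CCND1 (163.5 CPM) of its group. CDC20 (127.9 CPM), CDK1 (47.1 CPM), TOP2A (156.1 CPM) and AURKB (43.7 CPM) were also highest there. Without this library the PLK1 change was −0.80 with an edgeR adjusted p of 0.0943. The call was also lost without A549R DMSO replicate 1 or 2, A549R cisplatin replicate 1 or 2, A549 DMSO replicate 2 or A549 cisplatin replicate 2, at adjusted p of 0.0518 to 0.156 and log2 changes of −1.29 to −0.97.

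The response to cisplatin did not differ detectably between A549R and A549 at any of the 8 main ends. The test of the difference called 0 of 16439 peaks in edgeR (0%), with 0 of the 8 at an unadjusted p under 0.05 and 0 by DESeq2. For PLK1 the difference was 0.25 on the log2 scale (95% interval −0.58 to 1.09). Levels in A549R against A549 also passed at 0 of 8 main ends, in DMSO (2.1% of all peaks) and in cisplatin (1.64% of all peaks), with 0 by DESeq2 in both and 1 unadjusted p under 0.05 in each. In DMSO it was CCND1, at 246.4 ± 76.6 CPM in A549R and 354.7 ± 46.9 CPM in A549 (SD, n = 3 each; log2 −0.53, edgeR adjusted p = 0.253). In cisplatin it was CCNB1, at 101.2 ± 17.5 CPM in A549R and 75.1 ± 4.67 CPM in A549 (SD, n = 3 each; log2 0.42, edgeR adjusted p = 0.34). The A549R lists were long and the A549 lists short, so line and list kind cannot be told apart in the 2 level comparisons.

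The cisplatin response in H358 whole cells and A549 cytosol differed at 0 of 8 main ends in edgeR and in DESeq2, against 5.18% of 12260 peaks. An unadjusted p under 0.05 was reached by 2, namely CDK1, with a difference of 1.04 on the log2 scale (adjusted p = 0.176), and TYMS, with a difference of −0.65 (adjusted p = 0.183). Cell line, extract and list kind all differ between these libraries and cannot be told apart.

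Heavy polysomes hold mRNAs carrying many ribosomes, so a level there reflects the transcripts engaged in translation. In A549 polysomes cisplatin lowered 1 of the 8 main ends, PLK1, and raised none, against 0.283% of all peaks falling and 0.704% changed either way. PLK1 had 168.7, 153.6 and 132.6 CPM with cisplatin, against 380.5, 342.7 and 384.1 CPM with DMSO. The groups were far apart, with 0.43 of the DMSO level (log2 −1.22 ± 0.19 SE, edgeR adjusted p = 0.0286). CDK1 had 45.3, 55.6 and 59.0 CPM with cisplatin, against 30.5, 34.5 and 35.9 CPM with DMSO (log2 0.73 ± 0.22 SE, edgeR adjusted p = 0.169). CDC20 had 109.9, 131.2 and 161.1 CPM with cisplatin, against 166.0, 228.9 and 228.1 CPM with DMSO (log2 −0.56, edgeR adjusted p = 0.295). Neither overlapped between the groups, and with the replicate number as a block, which pairs these libraries, CDK1 rose (adjusted p = 0.0266) and CDC20 fell (adjusted p = 0.0248) beside PLK1, against 9.41% of all peaks changed either way. CCNB1 stayed within its spread, at 199.7 ± 13.9 CPM with cisplatin and 218.5 ± 17.4 CPM with DMSO (SD, n = 3 each). The PLK1 call was lost without cisplatin replicate 1, 2 or 3 or DMSO replicate 1 or 2, at adjusted p of 0.0535 to 0.122, while its log2 change stayed between −1.30 and −1.15.

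Relative to cytosol, A549 polysomes held more CCNB1, CDC20 and PLK1 both with cisplatin and with DMSO. With DMSO these 3 of the 8 main ends were higher and none lower, while 19.9% of all peaks were higher and 39.7% differed either way. PLK1 averaged 369.1 ± 22.9 CPM in polysomes and 140.1 ± 21.8 CPM in cytosol with DMSO (SD, n = 3 each; log2 1.28 ± 0.17 SE, edgeR adjusted p = 8.73e-05). CDC20 averaged 207.7 ± 36.1 CPM in polysomes and 92.5 ± 25.8 CPM in cytosol (SD, n = 3 each; log2 1.05 ± 0.26 SE, edgeR adjusted p = 0.00588). CCNB1 averaged 218.5 ± 17.4 CPM in polysomes and 132.3 ± 18.8 CPM in cytosol (SD, n = 3 each; log2 0.60 ± 0.17 SE, edgeR adjusted p = 0.0113), and 0.52 with adjusted p = 0.0542 without cytosol DMSO replicate 1. In all 3 the polysome libraries lay above every cytosol library. With the replicate number as a block, which pairs these libraries, AURKB was also higher (log2 0.52, adjusted p = 0.0342) and CDK1 lower (log2 −0.44, adjusted p = 0.0362) in polysomes, against 50.5% of all peaks differing. Without cytosol DMSO replicate 3, AURKB was higher without the block too (log2 0.68, adjusted p = 0.0483).

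With cisplatin the same 3 main ends were higher in polysomes and none lower, against 21% of all peaks higher and 43.3% differing either way. CCNB1 averaged 199.7 ± 13.9 CPM in polysomes and 75.1 ± 4.67 CPM in cytosol (SD, n = 3 each; log2 1.24 ± 0.17 SE, edgeR adjusted p = 0.000106). PLK1 averaged 151.6 ± 18.1 CPM in polysomes and 51.1 ± 2.76 CPM in cytosol (SD, n = 3 each; log2 1.39 ± 0.17 SE, edgeR adjusted p = 5.3e-05). CDC20 averaged 134.1 ± 25.7 CPM in polysomes and 50.2 ± 11.9 CPM in cytosol (SD, n = 3 each; log2 1.24 ± 0.26 SE, edgeR adjusted p = 0.00203). No single library ended any of these 3 calls.

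Over the 21 member ends tested, polysomes were higher at 8 and lower at none with cisplatin, against 21% of all peaks higher and 22.3% lower. With DMSO they were higher at 6 and lower at none, against 19.9% of all peaks higher and 19.8% lower. Member ends of the same gene are not independent of each other. PLK1's weaker end at chr16:23698777-23698923 was higher in both, at 4.53 ± 0.573 CPM in polysomes and 1.74 ± 0.793 CPM in cytosol with cisplatin (SD, n = 3 each; log2 1.27, edgeR adjusted p = 0.0121), and at 11.8 ± 1.02 CPM in polysomes and 4.75 ± 1.30 CPM in cytosol with DMSO (SD, n = 3 each; log2 1.22, edgeR adjusted p = 0.0052). The lists held no count under 5, so a level as low as that of this PLK1 end in cytosol with cisplatin may be cut off from below. The most distal TOP2A end averaged 30.7 ± 4.68 CPM in polysomes and 14.3 ± 5.20 CPM in cytosol with cisplatin (SD, n = 3 each; log2 0.92, edgeR adjusted p = 0.0127). TOP2A's main end did not pass in either treatment.

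Whether cisplatin changed the polysome level differently from the cytosol level was tested directly, and 0 of 17308 peaks (0%) passed in edgeR. Among the 8 main ends 1 had an unadjusted p under 0.05 and DESeq2 called 0. That end was CCNB1, whose difference of 0.63 on the log2 scale had an unadjusted p of 0.0181 and an adjusted p of 1. Replicate 3 of both polysome groups had a short list, like all cytosol libraries, whereas polysome replicates 1 and 2 had long ones.

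**Figure D4:**
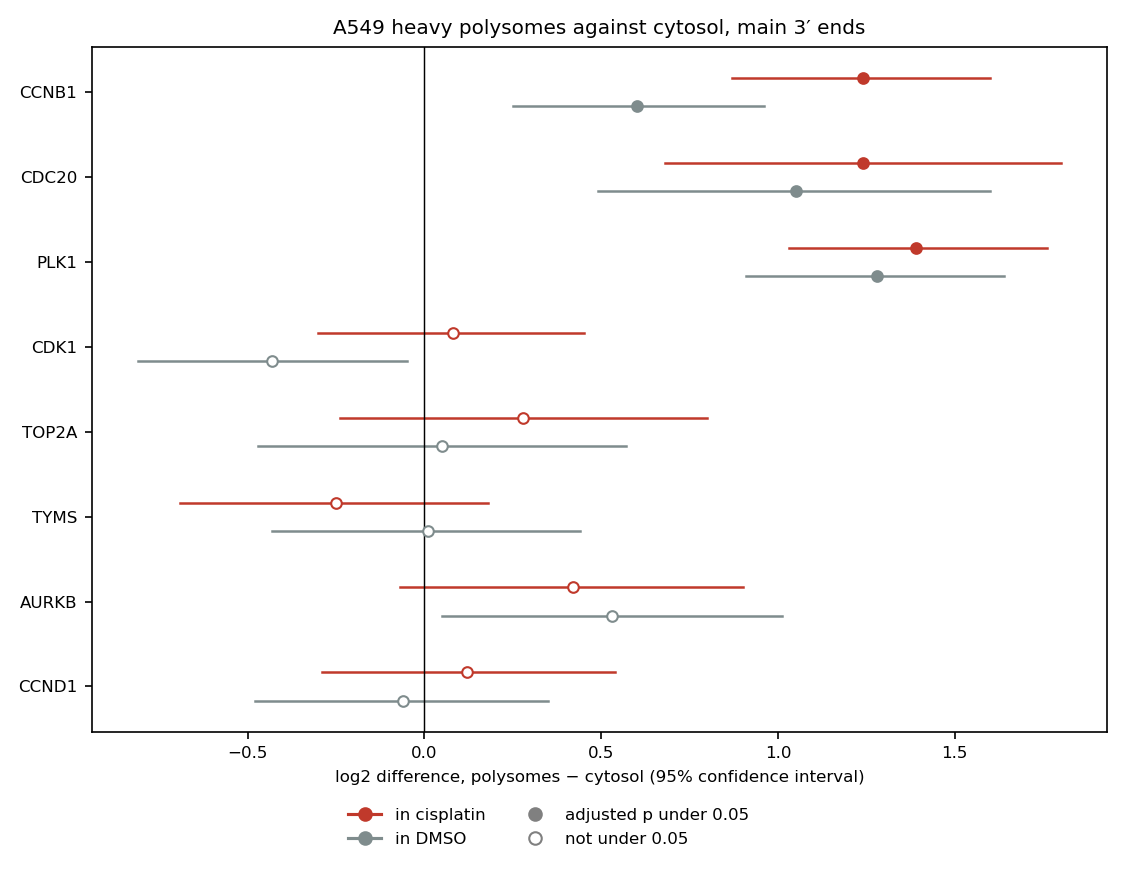
Log2 difference of each main end between A549 polysomes and cytosol with its 95% confidence interval, with cisplatin and with DMSO; filled points passed the adjusted p threshold of 0.05. CCNB1, CDC20 and PLK1 are filled in both treatments, with log2 differences of 0.60 to 1.39.

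Ordered by mean, PLK1 was highest in A549 polysomes with DMSO (369.1 CPM), followed by polysomes with cisplatin (151.6), A549R cytosol with DMSO (143.3), H358 with DMSO (140.4), A549 cytosol with DMSO (140.1), H358 with oxaliplatin (64.8), H358 with cisplatin (62.2), A549R cytosol with cisplatin (61.9) and A549 cytosol with cisplatin (51.1). Neighbours in this order overlapped except at 2 steps, below polysomes with DMSO and between A549 cytosol with DMSO and H358 with oxaliplatin. Outside polysomes, PLK1 in every library with a drug lay below that in every DMSO library. Over the 9 group means, PLK1's log2 level correlated with that of CCNB1 at r = 0.79, CCND1 at 0.73, TOP2A at 0.71, CDC20 at 0.46, TYMS at 0.3, AURKB at 0.05 and CDK1 at −0.64; these describe 9 points that share line, extract and list kind. Of 10282 other peaks listed in all libraries, the pattern most like that of PLK1 belonged to chr20:30380529-30380643 on the plus strand (r = 0.979), followed by chr17:43185920-43186406 on the plus strand (0.978) and chr22:38879437-38880271 on the minus strand (0.976), which carry no gene name in the files. The pattern most like that of TOP2A belonged to another TOP2A end, at chr17:38555017-38555440 (r = 0.992).

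The choice between ends of 1 gene was examined next, since a ratio of ends within a library does not depend on how libraries are scaled. An end that a list does not hold counts as 0 in these shares, so they also move with what was listed. The main end took 24.7% to 100.0% of a gene's listed reads across libraries. Over 40 comparisons of a gene between drug and DMSO, none passed; an exact two-sided permutation test of 3 against 3 cannot go below p = 0.1, and the smallest adjusted p was 0.364. CDK1's main end took 42.9 ± 6.18% of its reads with cisplatin and 30.8 ± 4.17% with DMSO in H358 cells (SD, n = 3 each). Cisplatin replicate 2 did not list an upstream CDK1 end that had 31.4 and 65.0 CPM in the other two treated libraries. TOP2A's took 30.5 ± 2.03% with cisplatin and 25.6 ± 1.30% with DMSO (SD, n = 3 each). For CCND1 it was 30.3 ± 3.94% with cisplatin and 38.2 ± 2.72% with DMSO in H358 cells, and 56.1 ± 2.74% with cisplatin and 61.4 ± 0.944% with DMSO in A549 cytosol (SD, n = 3 each).

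CDK1 and CCND1 each had a pair of neighbouring ends near the gene's 3′ side. In CDK1 the downstream of the 2, its main end, took 56.9%, 53.7% and 64.6% of the pair's reads with cisplatin, 50.0%, 52.7% and 49.9% with oxaliplatin and 44.4%, 47.0% and 54.7% with DMSO in H358 cells. Cisplatin replicate 2 lay below DMSO replicate 3, so the groups overlapped, and the upstream end changed by −0.60 relative to the downstream one on the log2 scale (95% interval −1.12 to −0.09, edgeR adjusted p = 0.18). In A549 cytosol the CDK1 values were 51.4 ± 3.11% with cisplatin and 51.5 ± 4.96% with DMSO (SD, n = 3 each).

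In CCND1 (chr11:69465880-69468295 and the main end) the downstream share was 31.2 ± 4.45% with cisplatin, 34.6 ± 4.59% with oxaliplatin and 38.9 ± 2.65% with DMSO in H358 cells (SD, n = 3 each). It was 56.7 ± 2.69% with cisplatin and 62.1 ± 1.03% with DMSO in A549 cytosol, and 57.3 ± 2.00% with cisplatin and 57.2 ± 3.02% with DMSO in A549R cytosol (SD, n = 3 each). For cisplatin in H358 cells the highest treated library was at 35.0% and the lowest DMSO library at 35.9%. In A549 cytosol they were at 59.2% and 60.9%, so neither pair of groups overlapped, by narrow margins. How many of all pairs separate in this way was not counted. The upstream CCND1 end is a merged peak much wider than the main end, and whether it pools several ends was not examined. The downstream share was lower in every H358 library than in any A549 or A549R library. All H358 libraries were whole-cell RNA and the others cytosol or polysomes, so line and extract cannot be told apart. Across all member pairs of ends within 10 kb, edgeR called none of 19 in H358 cells, 18 in cytosol and 41 in polysomes. For cisplatin against DMSO, 7.16% of all pairs passed in H358 cells, 0.419% in A549R cytosol, 1.1% in A549 cytosol and 0.0789% in polysomes. At an unadjusted p under 0.05 there were 1 member pair in H358 cells, 1 in A549R cytosol, 3 in A549 cytosol and 4 in polysomes, and the lowest edgeR adjusted p of these was 0.18. For cisplatin against oxaliplatin in H358 cells 4.68% of all pairs passed, with 2 member pairs at an unadjusted p under 0.05 and a lowest edgeR adjusted p of 0.119. DESeq2 was not run on pairs.

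**Figure D5:**
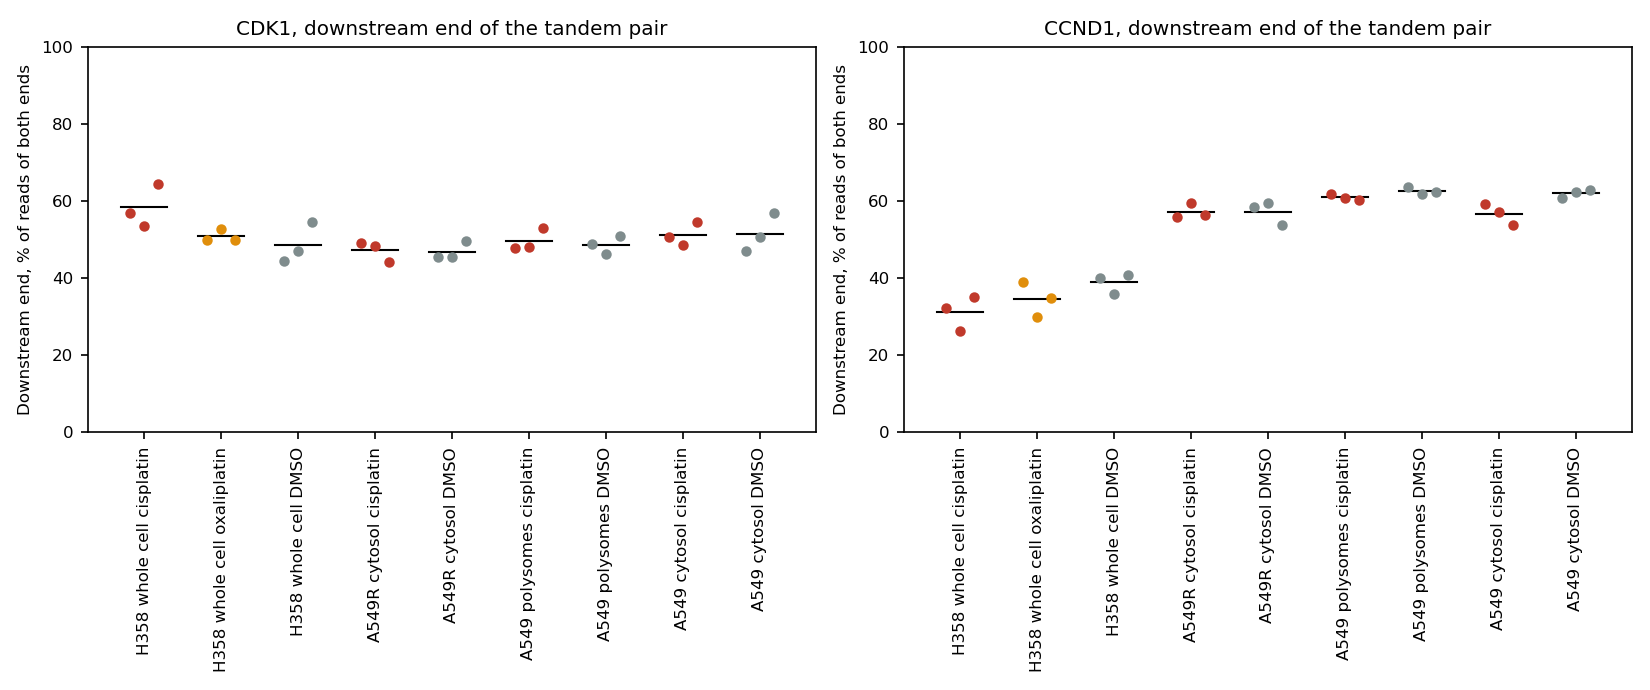
Percent of the reads of 2 neighbouring ends that lay at the downstream end, for CDK1 and CCND1, per library and group; points are libraries and lines are means of 3. For CCND1 the H358 libraries lie between 26.3% and 40.8%, and those of A549 and A549R between 53.8% and 63.7%.

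An end within the CDK1 window at chr10:62544338-62544607 was listed in 21 libraries and in 0 of the 3 oxaliplatin libraries. In H358 cells it had 31.4 and 65.0 CPM in the 2 cisplatin libraries that listed it and 24.5, 49.4 and 21.7 CPM with DMSO. In A549 cytosol it had 73.2 and 56.4 CPM in the 2 cisplatin libraries that listed it and 54.8, 47.1 and 45.9 CPM with DMSO. The end was not tested, since a library that did not list it gives no count.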

How the data were processed

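Each of the 27 files lists the 3′-end peaks of 1 library with a read count per peak, and the deposited counts were whole numbers of at least 5. How peaks were called and filtered is not stated in the sources at hand; Bowtie2 2.2.5, SAMtools 1.1 and bedtools 2.17.0 are named in the submitters' processing notes. These notes name mm9, but the files' chromosomes and positions are those of human hg19. Same-strand peaks sharing 1 base or more were merged across libraries into 233020, and counts were summed. The 8 genes, their windows, the main ends, the motifs and the wider gene lists were chosen with earlier results of these data known. All 82 member ends are covered, and the most alike peaks were those with the highest Pearson correlation over the 9 group means.

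Counts were tested with edgeR 4.0.16 (quasi-likelihood, TMM, R 4.3.3) on peaks listed in every library of a fit: H358, cytosol, polysomes, or 2 of these together. DESeq2 1.42.0 was an alternative, as were other scalings, filters on low counts, counts summed over a gene's window, a replicate block and leaving out each library. The scripts were tested on simulated counts. Intervals are 95% intervals of the fit; libraries were amplified without molecular identifiers, so read numbers (63 to 2276 per library for PLK1) overstate independent molecules.

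Replicate numbers were taken to pair libraries where all 3 same-numbered pairs of libraries deviated together from their group means with a correlation over 0.1. The lowest of the 3 correlations was 0.11 for oxaliplatin against DMSO, 0.3 for cisplatin in A549 cytosol, 0.15 in A549R cytosol and 0.43 in polysomes, 0.12 for A549R against A549 in DMSO, and 0.19 and 0.17 for polysomes against cytosol in DMSO and cisplatin. It was 0.03 for cisplatin against DMSO in H358 cells, −0.09 for cisplatin against oxaliplatin and 0 for A549R against A549 in cisplatin, which were not taken as paired.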

Additional observations from a re-analysis of the deposited data

How the results depend on the processing

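The 16 calls at main ends had 330 values under other settings, all in the same direction, and 267 of these still passed. Over all 104 main-end values, 2136 alternatives gave 1993 with the same call, 63 that lost it, 74 that gained it and 6 that reversed. All 6 reversals arose when libraries were scaled by all listed counts, which put the median of all peaks at −0.945 for cisplatin against oxaliplatin and at −0.646 and −0.614 for A549R against A549 in DMSO and cisplatin: CCNB1 −0.79 and CDC20 −0.85 for cisplatin against oxaliplatin, CCNB1 −0.60, PLK1 −0.67 and AURKB −0.63 for A549R against A549 in DMSO, and TOP2A −0.53 in cisplatin. That scaling also gave 7 main ends changed for cisplatin and 0 for oxaliplatin in H358 cells, 6 for cisplatin against oxaliplatin, 7 and 3 for A549R against A549 in DMSO and cisplatin, 0 for cisplatin in polysomes, 0 and 1 for polysomes against cytosol in DMSO and cisplatin, and 1 for H358 against A549. Testing every peak that averaged 5 counts or more, missing peaks taken as 0, gave 7 for cisplatin and 6 for oxaliplatin in H358 cells, 0 in each of A549, A549R and polysomes for cisplatin, 1 for polysomes against cytosol in DMSO and 1 for H358 against A549. Without a filter on low counts there were 7 and 5 in H358 cells for cisplatin and oxaliplatin, 1 between the drugs, 1 in A549, 0 in polysomes and 1 for polysomes against cytosol in DMSO. Of the peaks that averaged 5 counts or more, those listed in at least 1 short list gave 2 and 0 in H358 cells, 1 in A549, 0 in A549R and 0 in polysomes. Fits to the compared groups alone gave 7 for cisplatin in H358 cells, 1 between the drugs and 0 in A549R. Window sums gave 2 for oxaliplatin and 1 between the drugs, and DESeq2 gave 4 for oxaliplatin. The causes of these moves were not tested. Shares of all peaks under these settings are not given here, so these counts are not read as results about the genes. With the replicate block there were 7 and 5 in H358 cells for cisplatin and oxaliplatin, 2 between the drugs, 5 in A549, 3 in A549R, 3 in polysomes and 5 for polysomes against cytosol in DMSO, and no other count of calls moved. In the same order, the block fits called 36.3%, 15.6%, 29.4%, 11.9%, 9.44%, 9.41% and 50.5% of all peaks in either direction. Of the 40 main-end shares, which have no counterpart over other genes here, 11 did not overlap between groups and 19 had all 3 same-numbered pairs differing in 1 direction; neither count is read as a result. H358 cisplatin and DMSO libraries share only a number. Leaving out 1 library gave 3 to 5 calls for cisplatin and 0 to 3 for oxaliplatin in H358 cells, 0 to 1 between the drugs, 1 to 4 in A549, 0 to 1 in A549R and in polysomes, 2 to 4 for polysomes against cytosol in DMSO and 3 in cisplatin.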

Other observations

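Ends on the opposite strand were examined only where most libraries listed them, and those listed in fewer were left out. Such ends lay beside 2 of the genes, were listed in all 27 libraries and carry no gene name in the files. Downstream of CDC20, the end at chr1:43829063-43829746 on the minus strand had 200.5, 188.9 and 175.0 CPM with cisplatin, against 142.7, 122.9 and 151.2 CPM with DMSO in H358 cells. Every treated library was above every DMSO library, the reverse of CDC20's own main end, but the change did not pass (log2 0.32, edgeR adjusted p = 0.278). In A549 cytosol it had 146.4, 159.4 and 225.5 CPM with cisplatin, against 96.9, 80.6 and 168.2 CPM with DMSO (log2 0.69, edgeR adjusted p = 0.112). In polysomes it averaged 194.1 ± 45.1 CPM with cisplatin and 138.6 ± 47.4 CPM with DMSO (SD, n = 3 each; log2 0.54, edgeR adjusted p = 0.428).

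Beside TYMS, the end at chr18:673667-674390 on the minus strand had 5.797, 7.32 and 5.05 CPM with oxaliplatin, against 12.7, 13.7 and 12.6 CPM with DMSO in H358 cells. The groups did not overlap, and the end fell by 1.16 on the log2 scale (SE 0.31, edgeR adjusted p = 0.0305), while TYMS itself stood at 104.0 ± 9.40 CPM with oxaliplatin and 113.4 ± 12.0 CPM with DMSO (SD, n = 3 each; edgeR adjusted p = 0.685). With cisplatin the same end changed by −1.21 in A549R cytosol (edgeR adjusted p = 0.0541), by −0.83 in A549 cytosol (0.127) and by −0.64 in H358 cells (0.152), none of which passed.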
